A study of Rattus norvegicus with 14 samples.

Results

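Btbd11, Rhobtb1 and Patz1 encode proteins with a BTB domain, and their CpG methylation was followed here in rat sperm. The genes were chosen by their deposited q-values and methylation differences in these same data. Every region that the deposited tables assign to one of the 3 by name was kept, which gave 20 of 8555 listed regions (8 for Btbd11, 8 for Rhobtb1 and 4 for Patz1) and 3 of 3797 gene names. Sperm DNA of Wistar males of the parental generation was measured by reduced representation bisulfite sequencing (RRBS), which reads CpG methylation in CpG-rich restriction fragments. There were 14 libraries in 4 groups: 3 of untreated controls, 4 of males given a high-fat diet (HFD), 4 of males with early-life stress (ELS), and 3 of males with early-life stress followed by the high-fat diet (ELS-HFD). For early-life stress, pups were taken from their mother 3 h daily on 16 days from postnatal day 1, and pups of the control and HFD groups were not. Males of all groups took an elevated plus maze test around postnatal day 57, and on day 60 each was put on standard chow (control and ELS) or high-fat diet (HFD and ELS-HFD). The age at sperm collection, the litters and the number of males behind a library are not given in the sources used here, so the spread between libraries may be partly technical. A library value is the mean share of methylated CpG reads over a region, in percent. In DNA from bulk sperm, fewer methylated cells and less methylation per cell cannot be told apart.

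The BTB domain is a protein-protein interface that lets its carriers form dimers or larger assemblies, and in several of them it recruits the scaffold cullin-3 of a ubiquitin ligase. Btbd11 encodes a protein with ankyrin repeats and a BTB domain, described in mouse at synapses of inhibitory interneurons. Rhobtb1 encodes an atypical small GTPase that carries BTB domains and binds cullin-3. Patz1 encodes a transcription factor with a BTB domain, an AT hook and zinc fingers, and in mouse it is needed for normal spermatogenesis. In mature sperm the CpG-dense starts of most genes are unmethylated and the rest of the genome is largely methylated.

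RefSeq promoters on the build GRCr8, from 250 bases before to 50 after a transcript start, were at hand for Rhobtb1 and Patz1 (2 of the 3 genes; no entry was matched under the name Btbd11). They are shown because the Rhobtb1 regions in exon 1 and the Patz1 regions, labelled exon 1 or intron 1, lie downstream of a start. Every CpG is in capitals. The regions themselves have coordinates on another build, where they lie 439 to 1476 bp from the nearest annotated start. Their place relative to these windows was not checked.
Rhobtb1, chr20:19402008-19402307, minus strand: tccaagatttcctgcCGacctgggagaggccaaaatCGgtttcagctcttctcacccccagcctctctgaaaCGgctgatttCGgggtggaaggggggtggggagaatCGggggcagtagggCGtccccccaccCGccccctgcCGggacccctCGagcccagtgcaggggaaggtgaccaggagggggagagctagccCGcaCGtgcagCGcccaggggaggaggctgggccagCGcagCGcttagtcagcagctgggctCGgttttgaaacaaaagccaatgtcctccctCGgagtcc
Patz1, chr14:82378171-82378470, plus strand: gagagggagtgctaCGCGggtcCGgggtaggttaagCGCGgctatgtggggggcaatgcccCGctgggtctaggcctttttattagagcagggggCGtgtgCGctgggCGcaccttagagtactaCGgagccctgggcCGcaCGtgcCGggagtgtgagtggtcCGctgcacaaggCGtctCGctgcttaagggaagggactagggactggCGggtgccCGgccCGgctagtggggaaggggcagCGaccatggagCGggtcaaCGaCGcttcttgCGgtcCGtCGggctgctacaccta
Patz1, chr14:82380482-82380781, plus strand: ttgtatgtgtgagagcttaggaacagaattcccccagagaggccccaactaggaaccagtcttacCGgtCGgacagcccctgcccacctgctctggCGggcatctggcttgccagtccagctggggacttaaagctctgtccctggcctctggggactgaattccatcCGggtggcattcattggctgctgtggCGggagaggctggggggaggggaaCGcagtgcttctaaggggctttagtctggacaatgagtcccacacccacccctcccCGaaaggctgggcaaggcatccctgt
The Rhobtb1 promoter held 16 CpGs and the Patz1 promoters 26 and 7, where the median over 33469 promoters was 7. Of all promoters 69.5% had fewer CpGs than that of Rhobtb1, and 84.8% fewer than the first of Patz1. The motif CCGG, the cut site of the enzyme MspI that RRBS commonly uses and its own reverse complement, occurred 1 time in the Rhobtb1 promoter and 4 and 2 times in those of Patz1, and 51.4% of all promoters held it at least once.

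Read depth is unknown for every library, since the tables hold percentages without counts, so every error printed is an SD between libraries. The median methylation of a library over all regions listed in a comparison ran from 7.71% to 17.8%. Imprinted genes were looked up to describe the tissue, with a window set after the values were seen: at 25 of 28 regions, within 5000 bp of the starts of Gnas, Grb10, Igf2r and Zrsr1, whose imprinted marks sperm lacks, group means ran from 0.163% to 14.4%. The 3 regions farther out, all of Zrsr1, had 16.5 to 23.9%. The region assigned to Zdbf2, an imprinted gene with a paternal mark, had 95.6 to 98.3%, while an intron of Dlk1 had 13.4 to 18.3%. Coordinates of regions are those of Rnor_6.0, counted from 1.

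The comparisons with control asked about separation and diet, and methylation near Btbd11 was lower than control in both separated groups. The region was intergenic (chromosome 7, 24319792 to 24319889, 98 bp, 14 CpGs), 5955 bp upstream of the transcript start ENSRNOT00000044331 of gene ENSRNOG00000005758. The control libraries had 16.4, 19.7 and 22.2%. The values in ELS were 4.49, 7.55, 8.32 and 15.6%, so every ELS library lay below every control library. The ELS-HFD libraries had 0.871, 2.07 and 10.1%, again all below control. A region counts as called here where the q-value that the authors deposited is under 0.05, and of the 20 regions these 2 were, the next lowest q-value being 0.681. The q-value was 1.32e-05 for ELS against control, where 0.919% of the 1849 listed regions were called, and 2.24e-06 for ELS-HFD against control, where 0.696% of 1867 were. Called and lower than control were 0.811% and 0.589% of all listed regions. The differences were -10.4 points for ELS and -15.1 points for ELS-HFD. The libraries of the groups did not overlap in 25.7% and 38.7% of all regions listed in these tables. Since the gene was chosen with these values known, they are a description and no further test was made of them. Both comparisons use the same 3 control libraries. The deposited Kolmogorov-Smirnov p-values of the 2 regions were 4.67e-11 and 8.12e-12. An exact two-sided permutation test over libraries cannot go below 0.0571 for 4 against 3, or 0.1 for 3 against 3. The deposited p-values thus do not take the library as the unit, and the q-values do not measure the spread between libraries.

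With the HFD libraries added, the upstream site of Btbd11 gives all 4 groups over one interval. Its group means were 19.4 ± 2.89% in control (SD, n = 3), 18.6 ± 9.11% in HFD (n = 4), 9.001 ± 4.72% in ELS (n = 4) and 4.33 ± 4.99% in ELS-HFD (n = 3). Neighbours in this order overlapped: control with HFD, HFD with ELS, and ELS with ELS-HFD. The HFD libraries had 6.17, 17.8, 23.5 and 27.0%: 3 of them lay above all separated libraries, and 1 lay among them. The library at 6.17% also had the lowest median over all listed regions of its group (9.79% against 11.7 to 12.4% in the table of HFD against ELS-HFD). HFD against ELS-HFD was listed with a difference of 14.3 percentage points at a q-value of 0.932, in a table where 0.423% of 1653 regions were called. Without any 1 library it ranged from 11.5, without the HFD library at 27.0%, to 18.4, without the one at 6.17%. ELS against ELS-HFD was listed with 4.67 points at a q-value of 1, where 0.686% of 1603 regions were called. That last difference fell from 4.67 to 2.46 when the ELS library at 15.6% was left out. Leaving out the lowest ELS-HFD library gave 2.94 and leaving out the highest gave 7.53.

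**Figure D1:**
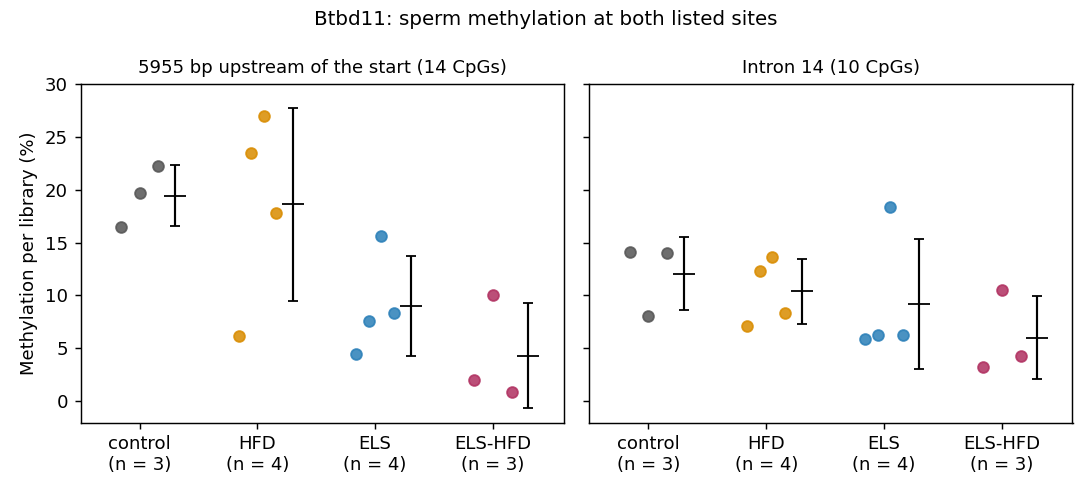
Methylation in percent (vertical axis) at the upstream and intron 14 sites of Btbd11 in each library (points) of the 4 groups, with the mean and SD beside the points. At the upstream site control spans 16.4 to 22.2% and ELS-HFD 0.871 to 10.1%, while at intron 14 the groups overlap.

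The diet alone was not listed for Btbd11 in the comparison of HFD with control, so the contrast was formed from the same intervals in the other tables, where each group was listed for its own difference to ELS-HFD. At the upstream site HFD minus control was -0.827 points. The sign rests on single libraries: the difference was 3.32 without the HFD library at 6.17%, 0.559 without the control library at 22.2%, and -2.33 without the one at 16.4%. Leaving out the HFD library at 23.5% gave -2.45, and the one at 27.0% gave -3.62. ELS minus HFD, which no table compares, was -9.61 points there. Over the 3 genes 9 such contrasts could be formed, and they are given as descriptions. The library values in them had a part in the choice of the genes and regions. An exact permutation test over libraries with Benjamini-Hochberg adjustment could also not have passed, since the lowest adjusted p these numbers of libraries allow is 0.0643 (the lowest found was 0.257).

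A second Btbd11 region lay inside the gene, 139.75 kb away, in intron 14 of the transcript ENSRNOT00000044331 (chromosome 7, 24179962 to 24180041, 80 bp, 10 CpGs), 77240 bp upstream of the nearest annotated start. It was listed in the same 4 comparisons as the upstream site, each time with a q-value of 1. The control libraries had 8.06, 13.98 and 14.1% and the HFD libraries 7.16, 8.35, 12.4 and 13.7%. In ELS the values were 5.86, 6.23, 6.27 and 18.4%, and the ELS-HFD libraries 3.24, 4.28 and 10.5%. Group means stood in the order of the upstream site, with 12.04 ± 3.44% in control, 10.4 ± 3.11% in HFD, 9.18 ± 6.12% in ELS and 6.01 ± 3.93% in ELS-HFD, but the libraries of each pair of groups overlapped. The differences were -2.86 points for ELS against control, -6.03 for ELS-HFD against control, 4.37 for HFD against ELS-HFD and 3.17 for ELS against ELS-HFD. The ELS group holds 3 libraries close to each other and 1 far above them. Without the ELS library at 18.4% the difference to control was -5.92 and that to ELS-HFD 0.113. The difference of ELS to control ranged from -1.75 to -1.89 without any one of the other ELS libraries or the control libraries at 14.1 and 13.98%, and was -4.84 without the control library at 8.06%. Without the ELS-HFD library at 10.5% ELS against ELS-HFD was 5.42 and HFD against ELS-HFD 6.62, and without the one at 3.24% the former was 1.79. HFD minus control was -1.66 points and ELS minus HFD -1.198. These values moved between -3.65 and -0.585, and between -4.26 and -0.0914, when any 1 library was left out.

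In HFD, ELS and ELS-HFD the library highest at the upstream site of Btbd11 was also the highest in intron 14. Among HFD libraries the order was identical at both sites, with 6.17 and 7.16% in the lowest and 27.0 and 13.7% in the highest. The ELS library at 15.6% upstream reached 18.4% in the intron, and the ELS-HFD library at 10.1% upstream had 10.5% in the intron. Among the other ELS and ELS-HFD libraries the order changed between the sites, and the lowest library was the same in HFD and ELS but not in ELS-HFD or control. That ELS-HFD library had the lowest median over all listed regions of its group (7.71% against 8.82 and 9.46% in the table of HFD against ELS-HFD), while it was the highest at Btbd11. In control the library highest upstream was second in the intron. This pattern was noticed after the values were seen and has no test.

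**Figure D2:**
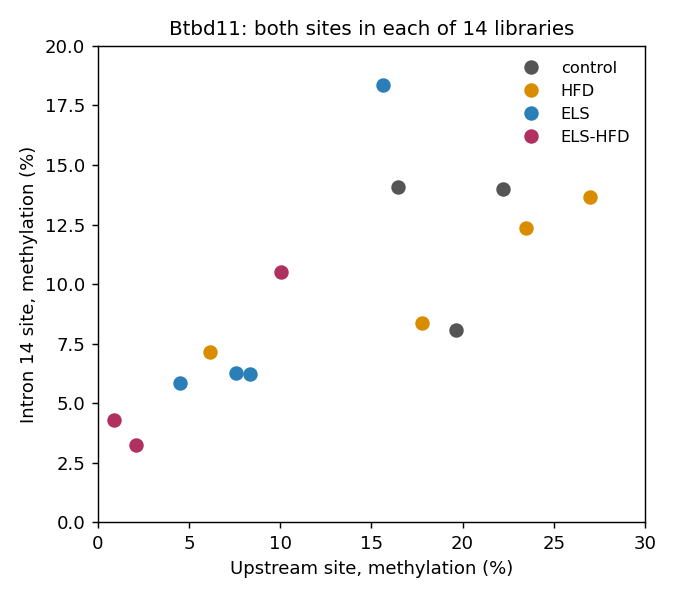
Methylation in percent at the upstream site of Btbd11 (horizontal axis) against that at its intron 14 site (vertical axis), 1 point for each of 14 libraries, coloured by group. The ELS library at 15.6% and 18.4% and the ELS-HFD library at 10.1% and 10.5% stand away from the rest of their groups on both axes.

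Rhobtb1 was listed most densely in exon 7 of 13 of the transcript ENSRNOT00000000784 (gene ENSRNOG00000000633, chromosome 20, 20658303 to 20658880), 21852 to 22187 bp past the nearest annotated start, and ELS-HFD was lower there than control, HFD and ELS. No Rhobtb1 region was called. Against control, over 16 CpGs (20658361 to 20658807), the ELS-HFD libraries had 5.61, 5.93 and 9.32%, against control libraries at 14.8, 15.2 and 21.3%. The groups did not overlap, as in 38.7% of all regions listed for ELS-HFD against control. The means were 6.96 ± 2.06% and 17.1 ± 3.65%, a difference of -10.1 points at a q-value of 0.681. Against HFD the exon was listed as a pair of regions. In the first (20658303 to 20658674, 10 CpGs) the HFD libraries had 16.02, 17.4, 19.01 and 24.9% and the ELS-HFD libraries 3.78, 6.37 and 9.94%. In the second (20658760 to 20658880, 12 CpGs) they had 11.6, 14.6, 16.8 and 18.96% against 8.08, 8.12 and 8.83%. Every HFD library thus exceeded every ELS-HFD library in both, by 12.6 and 7.15 points on average, at q-values of 1. Regions without overlap made up 23.9% of that table.

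Separation without the diet went with a smaller difference in Rhobtb1 exon 7. Over 31 CpGs (20658303 to 20658880) methylation was 9.41, 9.92, 11.004 and 11.3% in ELS, against 13.7, 13.9 and 18.2% in control. These did not overlap either, as in 25.7% of all regions listed for ELS against control. The means were 10.4 ± 0.9003% and 15.3 ± 2.57%, a difference of -4.85 points. ELS against ELS-HFD was again listed as a pair of regions. In the first (20658323 to 20658760, 12 CpGs) the ELS libraries had 9.56, 11.3, 14.8 and 14.9% and the ELS-HFD libraries 4.05, 5.86 and 9.38%, which did not overlap, as in 24.1% of that table. In the second (20658767 to 20658880, 11 CpGs) the means were 12.4 ± 2.51% and 8.79 ± 0.439%, and the ELS library at 9.13% lay below the highest ELS-HFD library at 9.29%. All 6 exon 7 differences kept their direction and changed by less than 1.5 times without any 1 library.

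Contrasts that no listed region used were also formed in Rhobtb1 exon 7. In its first part ELS minus HFD was -6.68 points, with means of 12.6 ± 2.64% and 19.3 ± 3.88% and no overlap. In its second part it was -3.098 points, and -1.94 without the HFD library at 18.96%, or -2.01 without the ELS library at 9.13%. HFD minus control was 2.23 points in the first part, and it ranged from 0.391 to 4.34 when any 1 library was left out. It was 0.391 without the HFD library at 24.9%, 4.34 without the control library at 21.3%, and 1.26 and 1.09 without the other control libraries. With the second HFD part against the same control interval, a pair with less overlap, it was -1.61 points, so the direction depends on the interval. The intervals of these pairs differ in length and CpGs: the ELS-HFD group, present in both tables of each pair, moved from 6.43 to 6.7% between the intervals behind the first contrast, from 8.34 to 8.79% behind the second, and from 6.7 to 6.96% behind the third. The cut into regions also differs by table. In ELS against control exon 7 was listed as 1 region of 31 CpGs. In HFD against ELS-HFD it was listed as a pair of 10 and 12 CpGs, which leaves out the bases between 20658674 and 20658760.

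Rhobtb1 exon 1 lay 53.6 kb away at the start of the same transcript (chromosome 20, 20712523 to 20712851, 439 to 442 bp from the start) and was close to unmethylated. Here the ELS group was the high one. Over 10 CpGs ELS had 0.765, 2.59, 2.7 and 6.86%, against 1.32, 1.41 and 1.56% in control. The groups overlapped, since 1 ELS library lay below all controls, and without the ELS library at 6.86% the difference of 1.798 points was 0.587. The authors' deposited table gives group means of 3.35 and 0.589% for this region and a difference of 2.76 points. Library means came to 3.23 ± 2.58% and 1.43 ± 0.122%, so the deposited value is over 1.5 times that of the library columns. In the table of ELS against ELS-HFD the ELS libraries had 0.787, 2.56, 2.87 and 7.502% and the ELS-HFD libraries 0.175, 0.409 and 1.29%. That difference of 2.81 points was 1.45 without the ELS library at 7.502%. ELS-HFD minus control, not listed, was -0.807 points from the library columns. The deposited group means at these intervals were closer, at 0.533% in ELS-HFD and 0.589% in control. That deposited control mean lies below every control library, so the size of this contrast depends on the source.

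**Figure D3:**
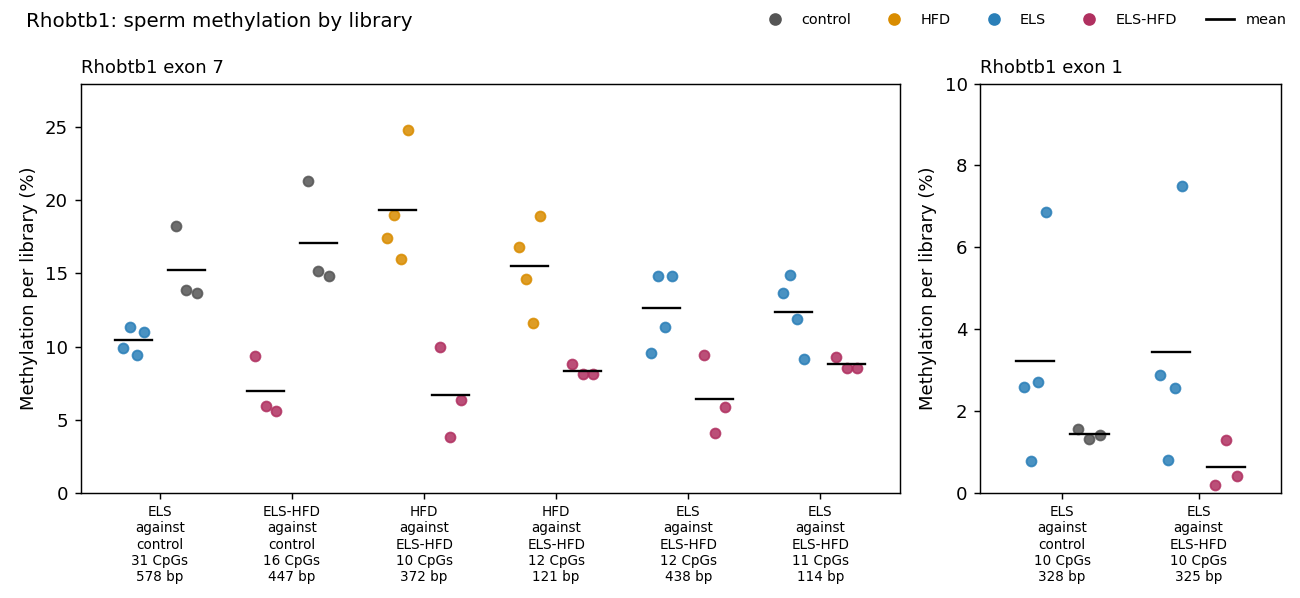
Methylation in percent (vertical axis) at the 6 listed regions of Rhobtb1 exon 7 and the 2 of exon 1, with the first-named group of each comparison on the left; points are libraries and lines are group means. ELS-HFD libraries lie between 3.78 and 9.94% in exon 7, and the scales of the panels differ.

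Patz1 (gene ENSRNOG00000018709, chromosome 14) was listed in 4 comparisons with 4 different intervals, all with a q-value of 1. Some are labelled exon 1 of the transcript ENSRNOT00000025378 and some intron 1 of another transcript, ENSRNOT00000089928. Intervals with different labels overlap. In exon 1 (83511687 to 83511790, 10 CpGs, 1098 bp from the start) methylation was 20.1, 24.3, 25.02 and 26.7% in ELS, against 28.03, 29.4 and 30.4% in control. All ELS libraries lay below control, with a mean difference of -5.25 points, and groups without overlap made up 25.7% of that table. Ranked from the lowest deposited Kolmogorov-Smirnov p, this region stood at 1807 of 1849. The Patz1 regions of the other comparisons stood at 1739 of 1867 (ELS-HFD against control), 1496 of 1583 (HFD against control) and 1379 of 1603 (ELS against ELS-HFD). Over another interval labelled exon 1 (83511737 to 83512008, 10 CpGs) the ELS-HFD libraries had 17.2, 20.5 and 24.9%, against control libraries at 23.8, 26.5 and 28.98%. These overlapped, with means of 20.9 ± 3.89% and 26.4 ± 2.58% and a difference of -5.58 points. An interval labelled intron 1 (83511790 to 83512155, 10 CpGs) overlaps the previous one. There the HFD libraries had 11.9, 13.6, 15.6 and 15.99%, against control libraries at 13.6, 17.4 and 20.2%. This was the one region of the 3 genes listed for HFD against control, in a table with 0.632% of 1583 regions called and no overlap in 22.6%. Its groups overlapped. Its difference of -2.81 points was -1.23 without the control library at 20.2% and -4.53 without the one at 13.6%.

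Separated males on the high-fat diet were also lower than separated males on chow at Patz1. Over the longest interval (83511784 to 83512449, 666 bp, 16 CpGs) the ELS libraries had 26.4, 29.03, 32.2 and 32.7% and the ELS-HFD libraries 22.8, 24.6 and 29.2%. The groups overlapped, and the difference was 4.52 points. The level of one group depended on the interval. Control stood at 29.3 ± 1.19% over 83511687 to 83511790, 26.4 ± 2.58% over 83511737 to 83512008 and 17.1 ± 3.31% over 83511790 to 83512155. ELS-HFD minus HFD could be formed only across the last pair of intervals, at 6.59 points. Control, measured in both intervals, differed by more than that between them, so no direction is read from this contrast.

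**Figure D4:**
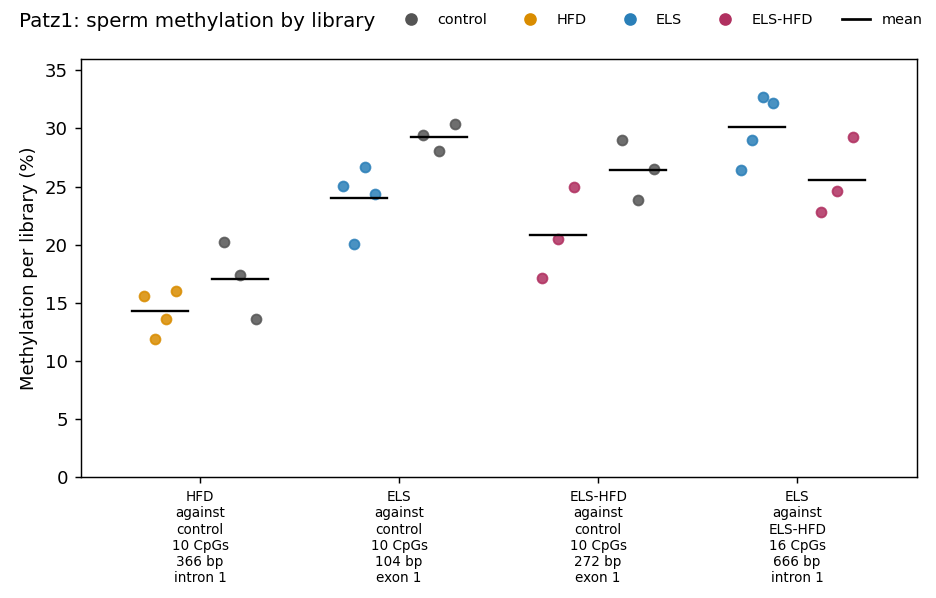
Methylation in percent (vertical axis) at the 4 listed regions of Patz1, each over its own interval, with the first-named group on the left; points are libraries and lines are group means. ELS lies below control in exon 1 without overlap, and the other pairs overlap.

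The directions of the 20 regions are a description, since the listing had a part in them. Of the 9 regions listed in a comparison with ELS or ELS-HFD against control, 8 were lower than control, the exception being Rhobtb1 exon 1 in ELS. In the tables of HFD and of ELS against ELS-HFD, all 10 regions were lower in ELS-HFD. The remaining region, Patz1 intron 1, was lower in HFD than in control. The median difference over all listed regions also pointed to lower methylation in separated groups against control, at -2.89 points for ELS and -3.14 for ELS-HFD. It did so too in ELS-HFD against HFD and ELS, at 3.09 and 2.83 points for the first-named group minus ELS-HFD. Every listed difference is at least 2.5 points in size, so these medians show only which sign was more common. The share of all listed regions with that sign is not given here, so the member counts cannot be weighed against it. The groups did not overlap in 8 of the 20 regions, 2 of Btbd11, 5 of Rhobtb1 and 1 of Patz1, against 27.3% of all 8555 listed regions. By size of difference, the upstream Btbd11 region stood at rank 59 of 1867 for ELS-HFD against control, 45 of 1653 for HFD against ELS-HFD, 138 of 1849 for ELS against control and 594 of 1603 for ELS against ELS-HFD.

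**Figure D5:**
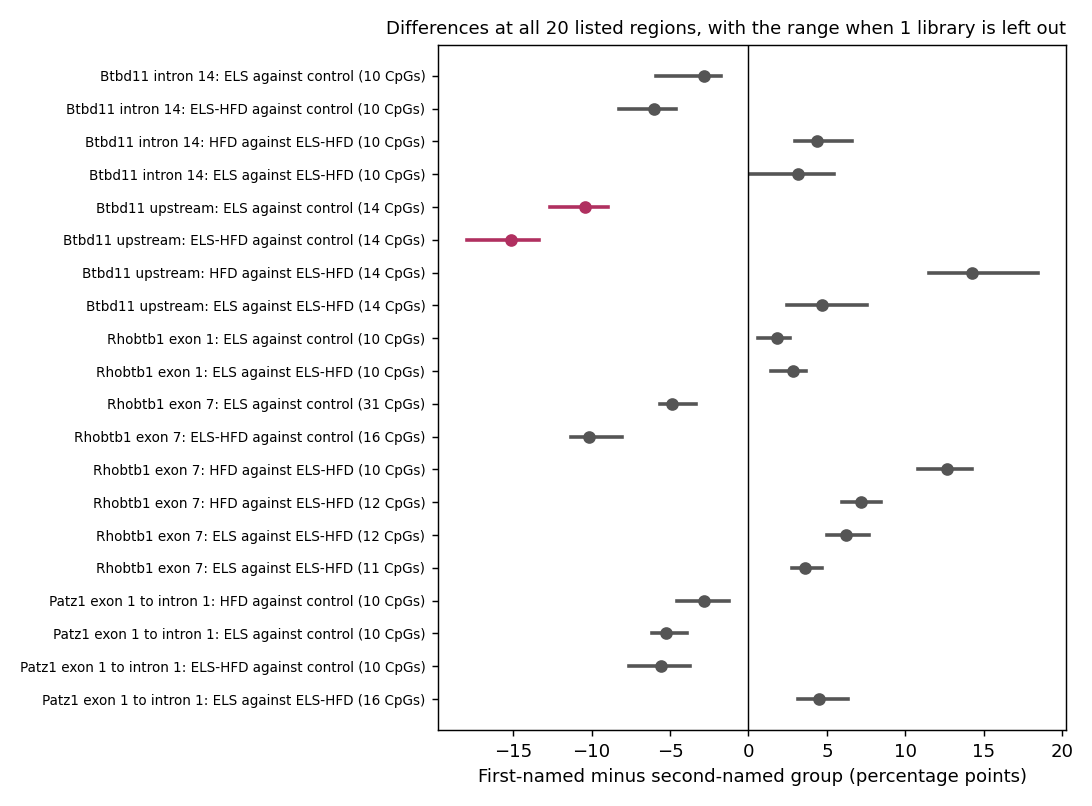
Difference in methylation, first-named minus second-named group in percentage points (horizontal axis), at each of the 20 listed regions of the 3 genes; points use all libraries, bars span the values with any 1 library left out, and the 2 called regions are in red. No bar crosses 0, and that of Btbd11 intron 14 in ELS against ELS-HFD reaches 0.113.

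The density of listed CpGs was higher at Btbd11 than at Rhobtb1 and Patz1. The upstream Btbd11 region had 14.3 CpGs per 100 bp and the intron 14 region 12.5, above the median of 11.2 over all listed regions. In Rhobtb1 the regions had from 2.69 to 9.92 CpGs per 100 bp and in Patz1 from 2.4 to 9.62, all below that median. These counts take the listed CpGs, not all CpGs in the sequence.

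Of the other BTB domain genes, a list of 150, 31 had at least 1 listed region and 82 regions were listed in all, of which 0 were called, where 0.678% of all 8555 listed regions were. In 47 of these regions the first-named group had the lower level, and in 35 the higher. Against control, 10 of 17 regions were lower in HFD, 11 of 15 in ELS and 15 of 19 in ELS-HFD. The median differences were -3.18, -4.47 and -3.78 points, where all listed regions had 2.67, -2.89 and -3.14. Every listed difference is at least 2.5 points in size, so these medians mainly tell which sign was more common. The gap between -3.18 and 2.67 for HFD is therefore not read as a size. The one region near the threshold was in intron 2 of Kctd2, a potassium channel tetramerisation domain gene (chromosome 10, 103975100 to 103975250), in ELS against ELS-HFD with a q-value of 0.0708. There the ELS libraries had 14.01, 18.96, 19.48 and 48.8% and the ELS-HFD libraries 45.8, 46.4 and 56.3%. This direction is opposite to that of the 3 genes, and 1 ELS library lay within the ELS-HFD range. The next in size were the promoter of Btbd16, at 34.8 ± 21.9% in HFD against 13.2 ± 8.88% in ELS-HFD, and the transcript end near Zbtb9, a BTB zinc finger gene, at 21.7 ± 10.7% in ELS-HFD against 40.1 ± 14.6% in control. In exon 2 of Zbtb45, also a BTB zinc finger gene, the ELS-HFD libraries had 47.9, 52.2 and 57.1%, against control libraries at 66.7, 66.97 and 69.8%. The q-value was 1, and the groups did not overlap, as in 38.7% of all regions listed for ELS-HFD against control. Of 11 genes of the cullin-3 ligase, only Ube2m, which encodes the NEDD8-conjugating enzyme that activates cullins, had listed regions: 4, of which 0 were called. One of them had 2.34 ± 0.486% in HFD against 5.67 ± 3.17% in control, without overlap, and another 0.512 ± 0.326% in ELS-HFD against 3.58 ± 3.73% in control.

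Regions of other genes most like the members were named by the mean absolute difference in methylation over the libraries of a table. For the upstream Btbd11 region, over 6 libraries of ELS-HFD against control, these were regions assigned to Tcf7l2 (3.55 points), Tnfrsf25 (3.57) and Thrb (4.26). For Rhobtb1 exon 7 in the same table they were regions next to a 7SK RNA copy (2.1 points), Armc12 (2.24) and AABR07007833.1 (2.41). For Patz1, over 7 libraries of ELS against ELS-HFD, they were those of Gpx8 (2.28 points), Sulf1 (2.52) and Dnai2 (2.79). All 9 of these regions had a q-value of 1.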

How the data were processed

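The 14 sperm libraries were made with the Zymo-Seq RRBS kit, per the labels' protocols. Per the submitters' processing notes, reads were handled with Trim Galore, Bismark and Bowtie on Rnor_6.0, with no versions given. The deposited tables, 1 for each of 5 comparisons, are metilene output per the file headers. Their percent values per library and group, p-values and q-values were deposited by the authors, as was the count of CpGs per region. The distance to a transcript start and the difference in percentage points (other units) are deposited too. Settings, coverage filters and the annotation tool are not given in the sources used here.

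Columns carry group codes without replicate numbers, and were matched to the 4 groups by the codes' letters and how many columns each has. At identical intervals 87.2 to 96.3% of library values agreed within 1e-06 between the same column of 2 tables, against 0.253% or less between different columns. The smallest listed region had 10 CpGs, and the smallest deposited difference was 2.5 points. The members and lists were chosen with earlier results of these data known, so listed contrasts are described without a test. Group means and SDs came from library columns. Contrasts not listed were taken from intervals that cover at least 50% of each other, in tables with a common group, with exact two-sided permutation tests (the smaller tail doubled) and Benjamini-Hochberg adjustment, whose p-values are not used since none could pass, in Python 3.11.15. Genes named outside the 3 are, per list, the 4 with the largest deposited difference (CUL3 had 1), and per member the 3 nearest in methylation at its region of lowest q-value. For Patz1, where 4 regions tied at 1, the lowest Kolmogorov-Smirnov p decided. The 5000 bp window for imprinted genes was set after the values were seen.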

Additional observations from a re-analysis of the deposited data

Results flagged for a closer look

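At the intron 14 site of Btbd11 the ELS library at 18.4% stood apart from the other ELS libraries at 5.86, 6.23 and 6.27%, with a gap of 0.967 of the group's range, above Dixon's critical value for 4 samples. It was the only one of the 14 groups of 4 tested at the regions of the 3 genes, and chance marks about 1 in 20 groups. The same library was the highest of its group at the upstream site, at 15.6%.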

How the results depend on the processing

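No paired analysis was possible because the table columns carry no replicate numbers. The 2 called regions stayed 2 with a q-value under 0.01 or 0.1 and with differences of at least 5 points. They became 0 with at least 15 CpGs, since the upstream Btbd11 region has 14, and 0 when only the gene that holds a region counts, since that region is intergenic. Of the 20 listed regions 10 had at least 5 points and 3 at least 15 CpGs. The BTB list had 1 called region with a q-value under 0.1. All 20 differences kept their direction on the logit scale, as medians, from deposited means and without any 1 library, and 7 of them moved by over 1.5 times without 1 library. As medians, the differences at Btbd11 intron 14 were -7.73 for ELS against control, -9.7 for ELS-HFD against control and 1.97 for ELS against ELS-HFD. Among the 9 unlisted contrasts HFD minus control at the upstream Btbd11 site changed sign, ranging from -3.62 to 3.32 without 1 library, including 0.559. The other 8 kept their sign without any 1 library. They include ELS-HFD minus HFD at Patz1, from which no direction is read since its intervals differ in level. An overlap of 1 bp added 3 contrasts, of which HFD minus control at Rhobtb1 exon 7 was -1.61 points against 2.23 for the other HFD interval. Identical intervals left 4. Neither set could have passed a test, since 0.0571 is the lowest adjusted p possible in each. Depth is unknown, so differences of a few points at nearly unmethylated CpGs cannot be weighed against counting error.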
